A study of Homo sapiens with 16 samples.

Results

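The comparison described here sets the HCF-2 Fn3nc* cell line against the HCF-2 WT cell line on day 4 of doxycycline treatment. Libraries were chosen by their labels for line and day, which gave 4 of the 16 RNA-seq libraries of the series, 2 per line. The series followed both lines on days 1, 2, 4 and 6 to compare what raised levels of the HCF-2 protein and of its altered form do to gene expression. Both lines were made from Flp-In T-REx HEK-293 cells, a human embryonic kidney line built so that a transgene can be placed at a chosen genomic site and switched on by doxycycline. The WT line carried Flag-Cherry-HCF-2 WT, that is, HCF-2 with a Flag tag and the red fluorescent Cherry protein at its N-terminus. The Fn3nc* line carried Flag-Cherry-HCF-2 Fn3nc*, with the same tags and the substitutions W377A in the Fn3n element and V653E in the Fn3c element. The 4 libraries thus share the parental line, the tags, selection in hygromycin, the inducer (1 μg/ml by the treatment label, although the design text writes the dose with μl) and 4 days of treatment. The sources used here do not say whether each line descends from 1 clone. Cells before induction and cells lacking the transgene were not analysed here, so differences due to the HCF-2 form and differences that the lines had before induction cannot be told apart.

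HCF-2, encoded by HCFC2, is a vertebrate paralog of HCF-1, a chromatin-associated protein that binds sequence-specific transcription factors through its Kelch domain and brings histone-modifying enzymes to promoters. Both proteins hold fibronectin type 3 (Fn3) repeats, of which one is formed by the pairing of an Fn3n and an Fn3c element. HCF-1 was first found as the host cell factor that joins an activator protein of herpes simplex virus, and it is cleaved by the enzyme OGT within a repeat region that HCF-2 lacks.

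The day 4 libraries held 24197342 and 25709232 expected counts in WT and 21054304 and 26114100 in Fn3nc*, within the range of 20270033 to 31006448 over the 16 libraries. WT replicate 2 stood apart from the other day 4 libraries. A count was seen for 36342 genes in this library and for 27972 to 28440 in the other 3, and mitochondrial genes took 0.996% of its counts against 0.485 to 0.664%. Except for the marker genes given next, counts and calls that moved by over 1.5 times without it, or without another day 4 library, are given with that value. Of 12 genes characteristic of HEK-293 11 passed the filter described below, with NCAM1 called higher (0.56), NEFL (-0.97) and VIM (-0.73) lower and the other 8 not called. The median difference of these 11 was -0.24, and it was 0.03 without WT replicate 2. Of 50 markers of endothelium, blood, fibroblasts, liver, squamous epithelium and muscle 10 passed, and in no library did those of one cell type sum to more than 15.54 CPM. On the first principal component of the 4 libraries, which held 81.25% of the variance of the 500 most variable genes, the WT libraries lay at -19.3 and -17.8 and the Fn3nc* libraries at 19.6 and 17.5.

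Levels are given library by library as CPM, the count relative to the TMM-scaled size of its library. Differences are log2 values of Fn3nc* minus WT with their standard error (SE) from edgeR's quasi-likelihood fit of all 16 libraries. A gene is called where its Benjamini-Hochberg adjusted p was under 0.05 over the 18925 genes tested, whose FPKM exceeded 1 in 1 or more of the libraries, and its log2 difference lay beyond 0.5 in either direction. Doxycycline was added to duplicates, but whether these were separate cultures is not stated, so the p-values rest on a spread between libraries that may be technical. The sources do not say whether reads were assigned by strand. For a gene that overlaps another on the opposite strand, as LCP1 does CPB2-AS1, TENM1 STAG2, ETV4 DHX8 and CHRD THPO, the reads of the partners therefore cannot be told apart.

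HCFC2 was among the most abundant transcripts in both lines. It measured 1150 and 1065 CPM in the WT libraries and 1403 and 1479 CPM in the Fn3nc* libraries, so that the lines did not overlap. The difference of 0.38 (SE 0.06, adjusted p = 2.10e-04, edgeR) lay inside the fold limit, and it does not separate transgene from endogenous reads, which are pooled in the gene count. The paralog gene HCFC1 measured 100.4 and 142 CPM in WT against 265 and 241 CPM in Fn3nc*, a called difference of 1.06 (SE 0.15). OGT, the glycosyltransferase that modifies and cleaves HCF-1, was 0.41 above WT (SE 0.06), inside the fold limit. Among 24 HCF proteins and partners, 3 were called higher and 1 lower, with a median difference of 0.24. The partners called higher included the histone H3 lysine 4 methyltransferase gene SETD1B (1.05), and the one called lower was the cell cycle factor E2F1 (-0.71). Without WT replicate 1 or WT replicate 2 the number called lower was 2, and without Fn3nc* replicate 2 the number called higher was 2.

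Over all genes, 1902 (10.1%) were called higher in Fn3nc* and 2291 (12.1%) lower, together 22.2% of those tested. Beyond a log2 difference of 1, 688 genes (3.64%) were called higher and 825 (4.36%) lower, and beyond 2 there were 179 and 125. The median difference over all genes was 0.01, and the percentiles 5 and 95 were -1.17 and 1.35. In these bulk libraries fewer cells that express a gene and less of its RNA per cell cannot be told apart. Of the called genes 2908 had a mean count of 100 or more over the 4 libraries, while 132 had a mean count under 10. By quartile of abundance the share called was 12% among the least abundant genes, 37.7% and 24.2% in the next and 14.8% among the most abundant. By quintile of length the median differences were between -0.03 and 0.03.

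**Figure D1:**
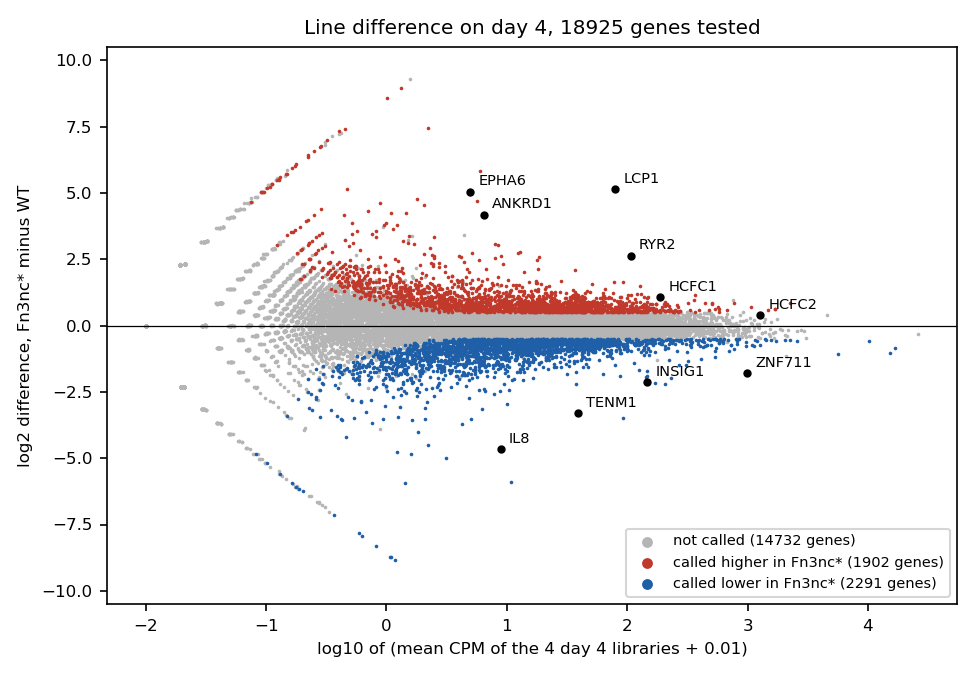
Each point is 1 of 18925 genes, with its abundance on day 4 (log10 of mean CPM plus 0.01) on the horizontal axis and its log2 difference between the Fn3nc* and WT lines on the vertical axis. Red points are the 1902 genes called higher and blue points the 2291 genes called lower, and named genes such as LCP1 (5.14), RYR2 (2.64), TENM1 (-3.31) and ZNF711 (-1.80) lie far from 0 at high abundance.

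The largest differences are given for called genes whose mean count over the 4 libraries was 100 or more, since larger fitted differences are found among sparser genes. Of those higher in Fn3nc*, LCP1 on chromosome 13, from 46700055 to 46786006 on GRCh37, encodes the actin-bundling protein L-plastin, best known from blood cells. It measured 4.28 and 4.48 CPM in WT and 143 and 166 CPM in Fn3nc*, a difference of 5.14 (SE 0.12, adjusted p = 4.74e-13, edgeR). RYR2, the calcium release channel of the sarcoplasmic reticulum, stood at 27.3 and 31.7 CPM in WT and 192 and 177 CPM in Fn3nc* (2.64, SE 0.08). For both genes the lowest Fn3nc* library lay several-fold above the highest WT library, and both genes were called higher on the other days too, by 5.20 to 5.29 for LCP1 and 2.00 to 2.59 for RYR2.

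Several other genes were close to silent in WT. ZNF320, a zinc finger gene of chromosome 19, measured 0.128 and 0.273 CPM in WT against 12.4 and 11.2 CPM in Fn3nc* (5.81, SE 0.34). The ephrin receptor genes EPHA6 and EPHA5 differed by 5.05 and 4.96, with WT levels of at most 0.506 CPM and Fn3nc* levels of 8.83 to 10.4 CPM. SYT1, the calcium sensor of synaptic vesicle release, measured 0.214 and 0.584 CPM in WT and 10.97 and 10.62 CPM in Fn3nc*. PTCHD1 (3.09), the monocarboxylate transporter gene SLC16A7 (3.02), the matrix glycoprotein gene EMILIN2 (2.79) and the actin-like gene ACTBL2 (2.75) followed. In none of these genes, chosen for their large differences in these libraries, did a WT library reach a Fn3nc* library.

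Of the genes lower in Fn3nc* by the same rule, IL8 came first. IL8, the neutrophil chemokine now named CXCL8, lies on chromosome 4 from 74606236 to 74609433. It measured 22.2 and 11.9 CPM in WT and 0.848 and 0.524 CPM in Fn3nc*, a difference of -4.65 (SE 0.32, adjusted p = 7.28e-08, edgeR). The WT libraries differed from each other, yet both stood far above Fn3nc*. IL18, another cytokine gene, measured 9.84 and 8.80 CPM in WT against 0.491 and 1.09 CPM in Fn3nc*, and OSTN, which encodes the secreted peptide osteocrin, 8.69 and 6.97 against 0.669 and 0.524 CPM.

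TENM1, a teneurin that spans the cell membrane, had the smallest p of the genes called lower. It is an X-linked gene and measured 66.7 and 74.7 CPM in WT and 6.87 and 7.33 CPM in Fn3nc* (-3.31, SE 0.09, adjusted p = 4.95e-12, edgeR). ETV4, an ETS-family transcription factor, stood at 19.3 and 16.2 CPM in WT and 2.32 and 2.28 CPM in Fn3nc* (-2.94). The cholesterol exporter gene ABCG1 (-2.58), the pentraxin gene PTX3 (-2.48), the scavenger receptor gene SCARA5 (-2.45), the arginine deiminase gene PADI2 (-2.44) and the noncoding transcripts LINC00263 (-3.14) and LINC01021 (-2.42) were lower by more than 2 on the log2 scale. MT-ND6, a mitochondrially encoded gene, met the same rule, but its level was 37.1 CPM in WT replicate 1, 304 CPM in WT replicate 2 and 20.4 and 10.0 CPM in Fn3nc*. Without WT replicate 2 its difference was -1.32 and it was not called (adjusted p = 0.143, edgeR), and its adjusted p was 0.00304 with all libraries.

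**Figure D2:**
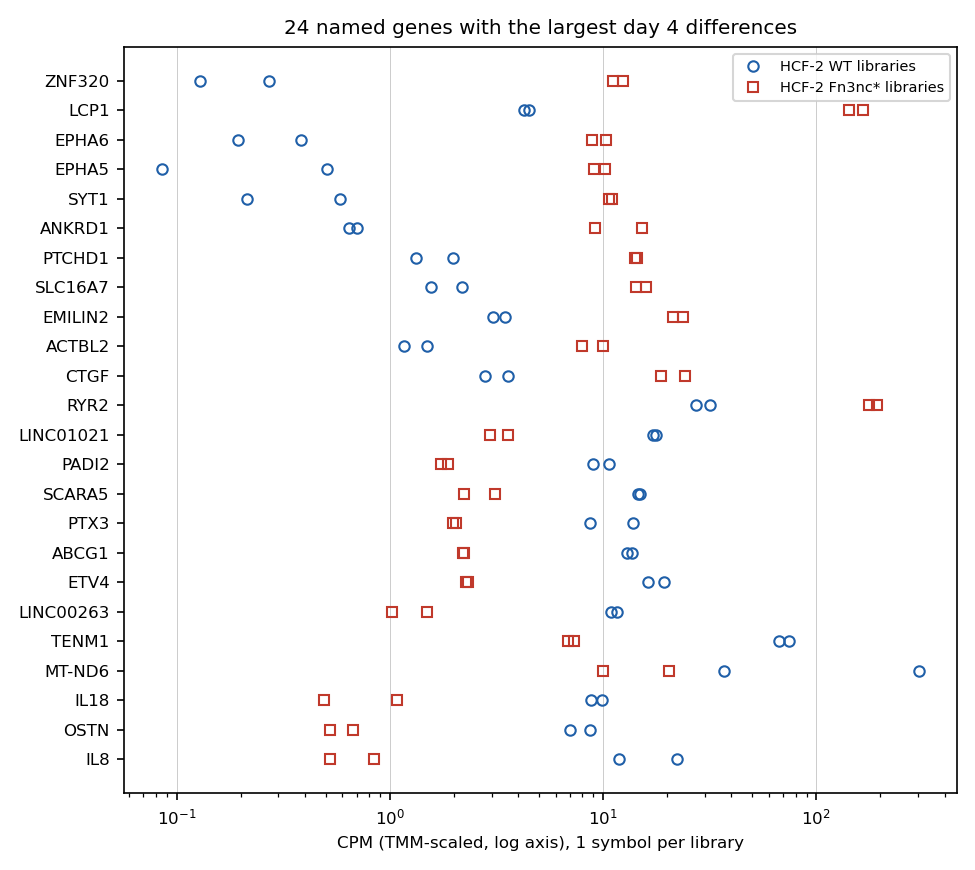
CPM on a log axis in each of the 4 day 4 libraries for the 24 genes with the largest called differences, 12 in each direction, among genes with a mean count of 100 or more. Circles are the 2 WT libraries and squares the 2 Fn3nc* libraries. The 24 genes were chosen for their difference in these same libraries, so that the lines do not overlap follows largely from the choice. MT-ND6 ranges from 37.1 to 304 CPM within WT.

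Ranked by the difference in CPM, abundant transcripts came first. HSP90AA1, a cytosolic chaperone, measured 1753 and 1418 CPM in WT and 2658 and 3107 CPM in Fn3nc* (0.86), ACTB 1307 and 1348 against 1918 and 2138 CPM (0.61), FLNA 740.1 and 911 against 1351 and 1308 CPM (0.69), and MKI67, a protein of dividing cells, 522 and 578 against 965 and 1011 CPM (0.85). On the lower side, the X-linked zinc finger gene ZNF711 measured 1557 and 1541 CPM in WT against 456 and 436 CPM in Fn3nc* (-1.80, SE 0.06). The translation elongation factor gene EEF1A1 stood at 12950 and 11480 CPM in WT and 7586 and 8627 CPM in Fn3nc* (-0.59). RN7SL1 and RN7SL2, near-identical copies of the signal recognition particle RNA between which reads can be split, differed by -1.05 and -0.85, and RPPH1, the RNA of ribonuclease P, by -1.07. These 3 RNAs lack poly(A) tails, whereas the libraries were made by poly(A) selection. NPM1, the nucleolar protein nucleophosmin, was called lower (-0.58), although not without Fn3nc* replicate 1 (-0.46).

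To describe gene groups, 37 lists were counted, holding 1107 genes tested between them, of which 98 were called higher and 258 lower. The lists were chosen with earlier results of these data known, and their counts are read against the 10.1% and 12.1% of all genes.

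Genes of the NF-kB pathway, which drives inflammatory transcription, stood lower in Fn3nc*. Of 20 subunits and targets tested, 12 (60%) were called lower and 0 higher (1 without WT replicate 2 or Fn3nc* replicate 2), with a median of -1.09. TNF, the cytokine, measured 3.51 and 2.65 CPM in WT against 0.179 and 0.0374 CPM in Fn3nc* (-4.84, SE 0.47), and the chemokine gene CXCL1 3.85 and 2.96 against 0.223 and 0.187 CPM (-4.03). The feedback inhibitors TNFAIP3 (-1.76), NFKBIA (-1.28) and NFKBIE (-0.87) and the subunit genes NFKB2 (-1.05) and RELB (-1.05) were lower too. The group thus held ligands, subunits and inhibitors alike, and its called members all stood lower.

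Of 28 immediate-early genes, which respond to growth factors and stress within minutes, 11 (39.3%) were called lower and 3 higher, with a median of -0.38. MYC, the growth-promoting transcription factor, measured 216 and 237 CPM in WT and 59.7 and 57.7 CPM in Fn3nc* (-1.95, SE 0.10). The AP-1 genes FOSL1 (-1.78), JUND (-1.15), FOS (-0.95) and JUNB (-0.51) were lower, as was IER3 (-1.40), whereas FOSB was 0.61 higher. The matricellular genes CTGF and CYR61 went the other way. CTGF stood at 3.595 and 2.804 CPM in WT and 18.7 and 24.1 CPM in Fn3nc* (2.75), and CYR61 at 8.003 and 8.606 against 24.1 and 29.6 CPM (1.69).

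Both are also targets of the YAP coactivator, and among 27 genes of the SRF, YAP and actin cytoskeleton list 9 (33.3%) were called higher and 0 lower, with a median of 0.17. ANKRD1 showed the largest difference of the list, 4.18 (SE 0.31), with 0.642 and 0.701 CPM in WT and 9.15 and 15.2 CPM in Fn3nc*. TAGLN, an actin-binding protein of smooth muscle, differed by 2.66, AMOTL2 by 1.67, and ACTB, MYH9 and TPM1 by 0.56 to 0.61. The other 18 members lay between -0.32 and 0.35.

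The ETV factors, which act downstream of fibroblast growth factor and ERK signalling, and ERK feedback genes were called lower in 10 of 21 cases (47.6%) and higher in 3, with 8 not called. Besides ETV4, this held for ETV5 (-0.76), the Sprouty gene SPRY4 (-1.35), the phosphatase gene DUSP4 (-0.70) and the cyclin gene CCND1 (-0.94). The receptor gene FGFR1 was 0.66 higher. ETV1 (-0.56) was called with all libraries and not without WT replicate 1 (-0.39).

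Of 27 p53 targets, 5 (18.5%) were called lower and 3 (11.1%) higher, against 12.1% and 10.1% of all genes. GDF15, a stress-induced cytokine, was the most affected, with 4.54 and 3.89 CPM in WT and 0.179 and 0.187 CPM in Fn3nc* (-4.49, SE 0.39). CDKN1A, the cell cycle inhibitor p21, measured 50.6 and 46.0 CPM in WT and 25.4 and 29.4 CPM in Fn3nc* (-0.82), while TP53INP1 (1.29) and TP53I3 (0.83) were higher.

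The amino acid response, in which ATF4 activates genes of amino acid supply, stood lower in Fn3nc*, with 18 of 32 members (56.2%) called lower and 1 higher and a median of -0.55. PCK2, the mitochondrial form of phosphoenolpyruvate carboxykinase, measured 24.7 and 27.5 CPM in WT and 6.65 and 6.73 CPM in Fn3nc* (-1.96, SE 0.14). CEBPB (-1.64), the proline synthesis gene PYCR1 (-1.52), TRIB3 (-1.34), DDIT4 (-1.26), asparagine synthetase ASNS (-0.79) and ATF4 itself (-0.67) were lower. ATF5 was the exception, with 7.36 and 7.87 CPM in WT and 15.6 and 15.2 CPM in Fn3nc* (1.01). Of 20 cytosolic aminoacyl-tRNA synthetases 4 were called lower and 2 higher, and the lower count was 1 without WT replicate 1 and also 1 without Fn3nc* replicate 1, the higher count 1 without WT replicate 1.

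Cholesterol synthesis genes and other SREBP2 targets were called lower in 10 of 24 cases (41.7%) and higher in 0 (1 without WT replicate 1), with a median of -0.42. INSIG1, which retains SREBP in the endoplasmic reticulum, measured 251 and 229 CPM in WT and 50.5 and 58.1 CPM in Fn3nc* (-2.14, SE 0.10). IDI1, an isomerase of the isoprenoid pathway, stood at 248 and 213 CPM in WT against 57.2 and 65.3 CPM in Fn3nc* (-1.91). The sterol carrier gene STARD4 (-1.21) and the synthesis enzyme genes MSMO1 (-1.16) and SQLE (-1.12) followed.

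Cytosolic ribosomal proteins stood slightly lower as a group. Of 75 tested, 37 (49.3%) were called lower and 0 higher, and the median was -0.48, just short of the fold limit. The largest differences were those of RPS29, RPS21 (-0.98) and RPL27 (-0.97). RPS29 stood at 211 and 139 CPM in WT and 84.9 and 89.9 CPM in Fn3nc*, while RPL27 measured 776 and 651 CPM in WT and 344 and 384 CPM in Fn3nc*. The summed level of the list was 70270 and 63430 CPM in WT and 47900 and 53110 CPM in Fn3nc*. Because many members lay near the limit, the count moved with single libraries, from 20 without WT replicate 1 and 23 without Fn3nc* replicate 1 to 46 without WT replicate 2 and 43 without Fn3nc* replicate 2. Ribosomal proteins have many processed pseudogenes, among which RSEM divides ambiguous reads.

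Of 60 genes of RNA polymerase I and rRNA processing in the nucleolus, 4 were called higher and 1, NPM1, lower, and the median was 0. This balance rested on single libraries, since without WT replicate 2 the counts were 2 higher and 6 lower (median -0.06), without Fn3nc* replicate 1 4 and 0, and without Fn3nc* replicate 2 3 and 2. TAF1C, a subunit of the polymerase I selectivity factor, was 0.91 higher, and the processome gene UTP20 was 0.58 higher, although not without WT replicate 2 (0.48). PPAN (0.77) shares exons with a read-through transcript, so its count is uncertain.

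Heat shock chaperones were called higher more often than lower in Fn3nc*. Of 19 heat shock chaperones 5 (26.3%) were called higher and 1 lower, with a median of 0.27. HSPH1, a nucleotide exchange factor of HSP70, measured 138 and 115 CPM in WT and 209 and 235 CPM in Fn3nc* (0.81), and DNAJA1 193 and 164 against 263 and 293 CPM (0.64). HSPA1B was called higher (0.58) and its near-identical copy HSPA1A was not (0.60, adjusted p = 0.103, edgeR), and reads can be split between them. HSPA8 (0.62) and HSPA1B were not called without WT replicate 2 (0.49) and without WT replicate 1 (0.45), respectively. The small heat shock protein gene HSPB1 stood lower (-0.80), and without WT replicate 2 the number called lower was 2. In the endoplasmic reticulum the luminal chaperones CALR, HSPA5 and DNAJC3 were higher by 0.80, 0.80 and 0.65, while the stress sensor ERN1 was lower (-1.18). These were 4 of the 5 genes called among 24, and XBP1 (-0.52), a transcription factor that ERN1 activates by splicing, was the other one. XBP1 was not called without WT replicate 1 (-0.36) or Fn3nc* replicate 1 (-0.45).

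Genes of cell division differed little. Of 48 DNA replication genes 4 were called higher and 0 lower, and of 50 mitosis genes 1 in each direction, with medians of -0.06 and 0.04. The number of replication genes called lower was 3 without WT replicate 2 and 2 without Fn3nc* replicate 2, and that called higher 2 without WT replicate 1. Of the mitosis genes 2 were called higher and 3 lower without WT replicate 2, 2 and 0 without Fn3nc* replicate 1, 1 and 0 without WT replicate 1, and 1 and 2 without Fn3nc* replicate 2. MKI67 was the mitosis gene called higher. The 35 proteasome genes had a median of 0.16, with PSMD11 (0.69) and PSMB6 (0.53) called higher, PSMB6 not without Fn3nc* replicate 2 (0.47). The number of proteasome genes called higher was 4 without WT replicate 1 and 1 without Fn3nc* replicate 2, and that called lower 2 without WT replicate 2 and 1 without Fn3nc* replicate 2. The nuclear-encoded respiratory chain was likewise close to 0, with 3 genes called higher, 4 lower and 69 not called of 76. Without WT replicate 2 the number called lower was 9 (median -0.19).

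For the mitochondrially encoded mRNAs the size of the day 4 result rested on WT replicate 2. The direction was the same on days 1, 2 and 6, with 5, 10 and 8 of 13 called lower and 0 higher. Their medians on those days were -0.69, -1.31 and -1.15. The WT duplicates differed there too, with mitochondrial genes at 1.12 and 0.656% of counts on day 2 and 1.06 and 0.666% on day 6. On day 4 all 13 had negative differences and 11 were called lower, with a median of -1.33. The summed level, however, was 5521 CPM in WT replicate 1, 9204 CPM in WT replicate 2 and 4533 and 3958 CPM in the Fn3nc* libraries. Without WT replicate 2 only 2 were called lower and the median was -0.56. Without WT replicate 1 the count was 12, and it was 7 and 4 without Fn3nc* replicates 1 and 2.

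In the extracellular matrix more genes were called lower than higher in Fn3nc*. Of 26 collagen genes tested 14 (53.8%) were called lower and 2 higher, with a median of -0.62. Without WT replicate 2 the counts were 10 lower and 5 higher, with a median of -0.42. COL13A1 (-1.63), COL23A1 (-1.80), COL6A2 (-1.09), COL6A1 (-0.90) and COL5A1 (-0.62) stood lower. COL12A1, a fibril-associated collagen, was the clear exception, with 6.16 and 4.83 CPM in WT and 28.2 and 32.5 CPM in Fn3nc* (2.47, SE 0.14). Of 38 matrix glycoproteins and remodelling enzymes, 18 (47.4%) were called lower, among them ADAMTS9 (-1.39), tenascin TNC (-1.09), fibronectin FN1 (-0.71) and SPARC (-0.70), and 2 higher, THBS1 (1.68) and fibrillin FBN1 (1.26).

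At the cell surface, 5 of 10 glypicans and syndecans were called lower and 0 higher. GPC3, a glypican that binds growth factors, measured 32.6 and 27.6 CPM in WT and 11.8 and 12.4 CPM in Fn3nc* (-1.31), and SDC4 52.3 and 41.1 against 16.8 and 20.1 CPM (-1.34). Integrin subunits were called lower in 5 of 19 cases and higher in 0 (1 without WT replicate 1 or Fn3nc* replicate 1), led by ITGA2B (-1.70) and ITGB4 (-1.58), which were expressed at under 5 CPM. Of 15 cadherins and protocadherins 3 were called higher and 2 lower. PCDH19, a protocadherin, stood at 2.01 and 2.61 CPM in WT and 14.3 and 12.8 CPM in Fn3nc* (2.54), and PCDH9 was 0.82 higher, whereas CDH7 was lower (-1.58).

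Axon guidance genes went both ways, with 9 of 54 called higher and 11 lower. Besides EPHA5, the ligand genes SEMA4D (1.20) and EFNB2 (1.15) were higher, and SEMA6B (-1.26), SEMA5B (-2.03) and EFNA3 (-1.17) were lower. Of 28 voltage-gated ion channel genes 10 (35.7%) were called lower, including CACNA1H (-2.03), KCNG1 (-2.07) and KCNQ1 (-2.29). The number called higher, 3, was 6 without WT replicate 2. CACNA1H, a T-type calcium channel, measured 15.2 and 21.4 CPM in WT and 4.86 and 4.15 CPM in Fn3nc*. The potassium channel gene KCND2 was one of 3 called higher, with 0.0428 and 0.195 CPM in WT and 3.97 and 2.96 CPM in Fn3nc* (4.77).

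Developmental pathways held calls in both directions. Of 46 genes of the TGF-beta and BMP pathway 9 were called higher and 9 lower. The direct BMP targets ID1 (1.51), ID2 (1.56) and ID3 (2.09), which block basic helix-loop-helix factors, and the inhibitory SMAD genes SMAD6 (1.32) and SMAD7 (1.12) were higher. ID3 measured 13.3 and 14.8 CPM in WT and 57.9 and 61.5 CPM in Fn3nc* (SE 0.10, adjusted p = 3.17e-09, edgeR). The secreted BMP antagonists CHRD (-1.80) and NOG (-1.49) were lower, as were the ligand genes INHBE (-1.51), INHBB (-1.08), TGFB2 (-0.99), BMP7 (-0.69) and BMP6 (-0.69), while BMP4 (0.67) and TGFB1 (0.74) were higher. CHRD stood at 4.37 and 6.15 CPM in WT and 1.74 and 1.31 CPM in Fn3nc*.

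Of 28 Notch pathway genes 8 (28.6%) were called lower and 1 higher, the latter 0 without WT replicate 1 or Fn3nc* replicate 1 and 2 without WT replicate 2 or Fn3nc* replicate 2. NOTCH3, a receptor, measured 18.7 and 24.3 CPM in WT and 5.89 and 6.96 CPM in Fn3nc* (-1.74), and HES6 (-1.32) and the ligand gene JAG2 (-0.91) were lower. Among 41 Wnt pathway genes 9 (22%) were called lower and 2 higher, the latter 1 without Fn3nc* replicate 2. WNT3, a ligand, stood at 21.0 and 22.4 CPM in WT and 5.67 and 4.94 CPM in Fn3nc* (-2.04), and the feedback target AXIN2 was lower (-0.74). The secreted inhibitor gene SFRP2, near 0 in WT at 0.0428 and 0.273 CPM, measured 1.96 and 2.21 CPM in Fn3nc* (3.65).

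Retinoic acid genes were called lower in 7 of 14 cases and higher in 0, with a median of -0.62. ALDH1A3, which makes retinoic acid, measured 15.4 and 14.6 CPM in WT and 4.02 and 4.60 CPM in Fn3nc* (-1.79), and the receptor RARB, itself a retinoic acid target, 15.4 and 15.5 against 4.68 and 4.64 CPM (-1.73). The degrading enzyme CYP26B1 (-1.27), the binding protein gene CRABP2 (-1.22) and the uptake receptor gene STRA6 (-1.57) were lower as well. Kidney development factors were called lower in 6 of 19 cases and higher in 0, among them EMX2 (-0.83), POU3F3 (-0.82) and WT1 (-0.54).

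Of 15 Hedgehog pathway genes 3 were called in each direction. The receptor gene PTCH1 was 0.76 higher, with 22.9 and 24.7 CPM in WT and 40.7 and 39.7 CPM in Fn3nc*, and the acyltransferase gene HHAT was lower (-1.24). HOX genes, which set position along the body axis, were called higher in 9 of 35 cases (25.7%) and lower in 6. The HOXA members called, HOXA5 (0.88), HOXA6 (1.65), HOXA7 (0.78), HOXA9 (0.57) and HOXA10 (0.59), were higher, and the HOXB members called, HOXB7 (-0.53), HOXB8 (-0.66), HOXB9 (-0.60) and HOXB13 (-1.13), were lower. The count of Hedgehog genes called lower was 1 without Fn3nc* replicate 2, and BOC, GLI1 and STK36 each lost the call without at least 1 library. The count of HOX genes called higher was 5 without WT replicate 1, and that of those called lower was 3 without Fn3nc* replicate 1.

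Other metabolic and defence groups were smaller or mixed. Glycolysis and hypoxia targets were called lower in 8 of 29 cases and higher in 3 (1 without Fn3nc* replicate 2), with BHLHE40 (-1.18) and EGLN3 (-0.89) lower and lactate dehydrogenase LDHA higher at 342 and 289 CPM in WT against 539.5 and 608 CPM in Fn3nc* (0.86). NRF2 antioxidant genes were called higher in 4 of 20 cases and lower in 1. The haem oxygenase gene HMOX1 stood at 6.72 and 7.40 CPM in WT and 18.6 and 20.3 CPM in Fn3nc* (1.46), the ferritin gene FTL was 1.15 higher, and SLC7A11 was lower (-0.75), with 2 called lower without WT replicate 2 or Fn3nc* replicate 2. Interferon response genes were called lower in 5 of 28 cases, with BST2 (-2.64), DDX60 (-1.60) and IFITM1 (-1.47), and higher in 1, IFIT3 (1.58), or in 3 without WT replicate 2 or Fn3nc* replicate 2. Of 16 genes of MHC class I presentation 3 were called lower, among them TAP1 (-0.69), and 1 higher, the transactivator NLRC5 (0.97). In the insulin-like growth factor axis 4 of 15 were called lower and 2 higher (1 without WT replicate 2 or Fn3nc* replicate 2), with IGFBP5 at 37.2 and 40.5 CPM in WT and 16.6 and 18.1 CPM in Fn3nc* (-1.17).

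**Figure D3:**
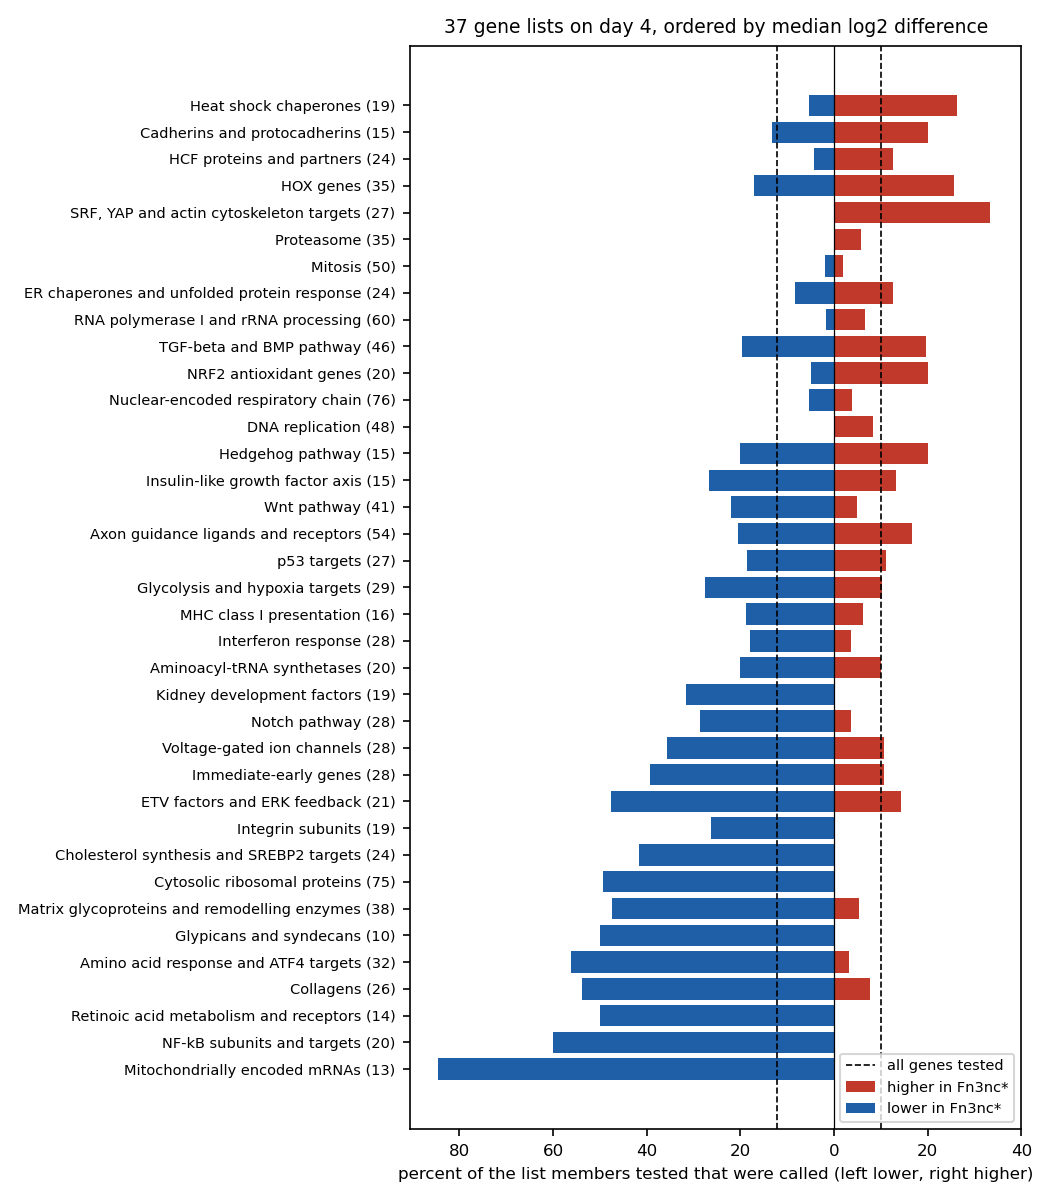
Bars give the percent of tested members of each of 37 gene lists (number tested in brackets) that were called higher (red, right) or lower (blue, left) in Fn3nc* on day 4, and dashed lines mark the 10.1% and 12.1% of all genes. The longest blue bars are those of the mitochondrially encoded mRNAs, which rest on WT replicate 2, and of the NF-kB list (60%), and the longest red bar is that of the SRF, YAP and actin cytoskeleton list (33.3%).

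The line difference was also measured on the other days. On day 1, 34.2% of genes were called, 3539 (18.7%) higher and 2926 (15.5%) lower. On day 2 it was 16.6%, with 1719 (9.08%) higher and 1432 (7.57%) lower, and on day 6 30%, with 2501 (13.2%) higher and 3183 (16.8%) lower. Of the genes called higher on day 4, 949 (49.9%) were also called higher on day 1, 751 (39.5%) on day 2 and 1345 (70.7%) on day 6. Of those called lower, 1197 (52.2%) were lower on day 1, 815 (35.6%) on day 2 and 1946 (84.9%) on day 6. As shares of the other day's calls, the day 6 overlaps were 53.8% and 61.1%. On day 4 alone 304 genes were called higher and 149 lower, but of these only 68 and 23 also passed the test of day 4 against day 2 or 6 in the same direction. Each day has its own libraries of both lines, so the calls of different days share no libraries, although they come from the same fit. The test of day 4 against another day reuses the day 4 libraries by which these genes were chosen, so it is not independent of that choice.

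The difference of differences was tested in the same fit. Against day 1, the day 4 line difference was above for 1684 genes (8.9%) and below for 2541 (13.4%), together 22.3%. Against day 2 it was above for 746 (3.94%) and below for 1089 (5.75%), together 9.7%. Against day 6 it was above for 119 (0.629%) and below for 33 (0.174%), together 0.803%. Against all of days 1, 2 and 6, 0 genes were above and 1 was below. The day 6 counts rested on single libraries: leaving out 1 day 4 library at a time gave 11 to 460 genes above and 4 to 155 below, the lower ends without Fn3nc* replicate 2 and Fn3nc* replicate 1 and the upper ends without WT replicate 2. The day 2 count above went from 452 without WT replicate 1 to 1226 without WT replicate 2. The split also moved with scaling, to 503 above and 1342 below against day 2 and 84 in each direction against day 6 with upper-quartile scaling.

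By the share of members that passed the test against day 1, the immediate-early, NF-kB and p53 lists came first. All 22 immediate-early genes that passed the test of day 4 against day 1 had a lower line difference on day 4, out of 28, and 15 did against day 2. The median of the list went from 1.09 on day 1 to 0.24 on day 2, -0.38 on day 4 and -0.55 on day 6, and 19 of its members were called higher on day 1. For the NF-kB list the same tests gave 15 and 10 of 20, with medians of 0.31, 0.02, -1.09 and -1.44. RELB, for example, measured 1.54 ± 0.255 CPM in WT and 6.27 ± 0.558 CPM in Fn3nc* on day 1 (mean ± SD, n = 2) and 5.32 ± 1.02 against 2.56 ± 0.0269 CPM on day 4. The WT level was thus higher and the Fn3nc* level lower on day 4 than on day 1. IL8 differed in WT, from 1.28 ± 0.249 CPM on day 1 and 1.47 ± 0.0304 on day 2 to 17.1 ± 7.28 on day 4 and 10.8 ± 1.02 on day 6, while Fn3nc* stayed between 0.464 and 1.00 CPM.

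For p53 targets 16 of 27 had a lower line difference on day 4 than on day 1 and 3 a higher one. The ATF4 list differed mainly from day 2, with 19 of 32 members below and 1 above, and its median was 0.08 on day 2 and -0.55 on day 4. By contrast, of 75 ribosomal proteins 1 was above and 1 below day 1, and 0 were above and 3 below day 2. Their medians were -0.49, -0.19, -0.48 and -0.58 on the 4 days, with 5 called lower on day 2 against 37 on day 4. The cholesterol list, with medians of -0.86, -0.65, -0.42 and -0.36 on the 4 days, had 5 members above day 1 and 1 below. Heat shock chaperones had 6 of 19 members above day 1 and 6 above day 2, with 0 below on each occasion.

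**Figure D4:**
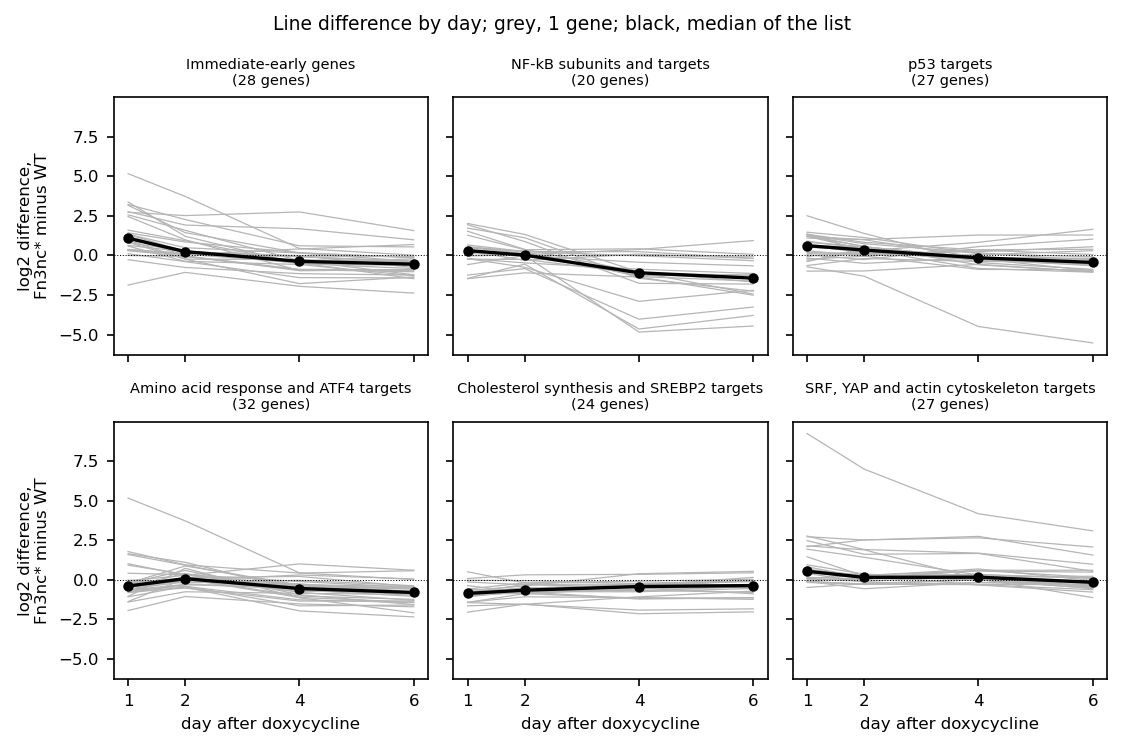
Log2 difference between the Fn3nc* and WT lines on days 1, 2, 4 and 6 for each gene (grey) and the median (black) of 6 gene lists. The immediate-early median goes from 1.09 on day 1 to -0.38 on day 4 and the NF-kB median from 0.31 to -1.09, while the cholesterol median stays below 0 on all 4 days.

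Single genes showed the same shifts. DNAH17, an axonemal dynein, measured 5.50 ± 0.247 CPM in WT and 348 ± 15.5 CPM in Fn3nc* on day 1, and 9.11 ± 0.171 against 17.3 ± 1.66 CPM on day 4. Its line difference was thus 5.07 smaller on day 4 (SE 0.20, adjusted p = 6.20e-10, edgeR). ANKRD1 went the same way, since its Fn3nc* level was 234 ± 0.026 CPM on day 1, 37.3 ± 2.34 on day 2 and 12.2 ± 4.30 on day 4, and WT stayed under 1 CPM. The small heat shock protein gene HSPB8 and the neuronal gene STMN4 had Fn3nc* levels of 39.7 ± 0.749 and 20.1 ± 0.319 CPM on day 1 and of 3.89 ± 0.265 and 0.641 ± 0.166 CPM on day 4. The day 4 difference of STMN4 (1.48) was not called without WT replicate 1 (1.01) or Fn3nc* replicate 1 (1.21). Nor was it called when only the 4 day 4 libraries were fitted (1.49, adjusted p = 0.117, edgeR).

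In the other direction, EMC10, a subunit of the endoplasmic reticulum membrane complex, was at nearly the same level in the lines on day 1 (69.73 ± 4.09 CPM in WT and 68.97 ± 2.18 in Fn3nc*, line difference -0.02, not called) and differed on day 4, at 37.3 ± 3.40 CPM in WT and 118 ± 1.81 CPM in Fn3nc* (line difference 1.66, or 1.68 above day 1, SE 0.11). NCDN, which encodes neurochondrin, followed the same course, with a line difference of -0.33 on day 1, -0.29 on day 2 and 1.14 on day 4. Of the genes that passed against day 6, ETV1 measured 21.2 ± 3.37 CPM in WT and 14.4 ± 0.658 CPM in Fn3nc* on day 4 and 8.29 ± 0.145 against 13.9 ± 0.371 CPM on day 6, so that its direction turned. The neuropeptide gene NTS was lower in Fn3nc* on day 4 (-1.64) and not on day 6 (0.07).

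Line differences were also uneven along the genome. On chromosome 13, 94 of 319 genes (29.5%) were called higher and 16 (5.02%) lower, and the median difference was 0.36. On chromosome 19, 367 of 1272 (28.9%) were called higher and 93 (7.31%) lower, with a median of 0.34. On chromosome 20, 23 of 456 (5.04%) were called higher and 97 (21.3%) lower, with a median of -0.19. The median was within 0.13 of 0 on every other autosome and on chromosome X. Without the FPKM filter, which adds weakly expressed genes, the medians of chromosomes 13, 19 and 20 were 0.00, 0.01 and -0.30. The median over all genes was then -0.083, so these values are read against that level and not against 0. As differences from 0, the upward shifts hold for the genes that pass the filter. The same chromosomes stood out on the other days, with medians of 0.38 to 0.48 for chromosome 13, 0.20 to 0.27 for chromosome 19 and -0.24 to -0.21 for chromosome 20. They were not alone on day 6, when chromosome 21 had a median of 0.22, against 0.11 on day 1, 0.06 on day 2 and 0.10 on day 4.

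Relative to the mean of the 4 day 4 libraries, the median of chromosome 13 was -0.09 and -0.18 in WT and 0.12 and 0.15 in Fn3nc*. That of chromosome 19 was -0.22 and -0.06 in WT and 0.17 and 0.09 in Fn3nc*, so that the WT libraries differed by about as much as the nearest libraries of the 2 lines. WT replicate 1 and WT replicate 2 also differed with the GC content of transcripts, from 0.11 and -0.08 in the quintile of genes with the lowest GC to -0.13 and 0.16 in that with the highest. The line difference itself had medians of -0.04 to 0 over these quintiles, but the number of calls rose with GC. In the lowest quintile 220 of 2891 genes were called higher and 304 lower, and in the highest 368 of 2891 and 568. With the GC trend of each library removed, 2140 genes were called higher and 2170 lower over all genes, and the chromosome medians were 0.38, 0.37 and -0.17. Leaving out WT replicate 1 or 2 gave 0.23 and 0.44 for chromosome 19.

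Within chromosome 13 the shift was not uniform. Between 20 and 30 Mb 2 of 60 genes were called higher and 11 lower (median -0.13), while between 40 and 50 Mb, where LCP1 lies, 23 of 61 were called higher and 0 lower (median 0.50). From 30 Mb to the end of the chromosome the medians of 10-Mb windows were between 0.30 and 0.77. On chromosome 19 the window from 50 Mb on held 134 of 263 genes called higher and 5 lower, with a median of 0.72, and that from 30 to 40 Mb had a median of 0.04.

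Chromosome 19 carries many KRAB zinc finger genes, which encode DNA-binding repressors, and these were counted after their values had been seen. Of 232 genes with a ZNF symbol on chromosome 19, 104 (44.8%) were called higher and 3 lower, with a median of 0.45. Of 275 elsewhere, 32 were called higher and 30 lower, with a median of 0. The 1040 other genes of chromosome 19 had a median of 0.31, with 263 called higher and 90 lower.

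**Figure D5:**
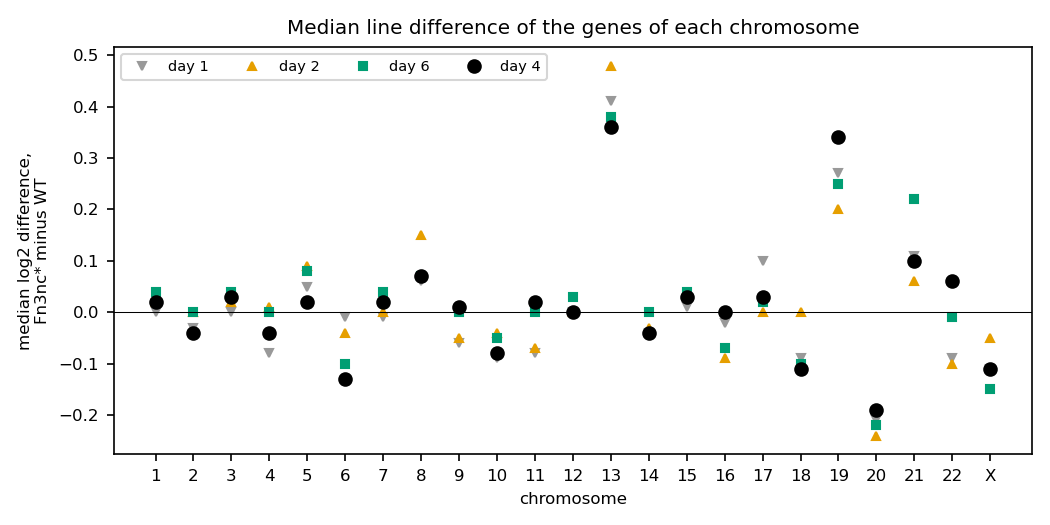
Median log2 difference between the Fn3nc* and WT lines over the tested genes of each chromosome, on day 4 (black circles) and days 1, 2 and 6. Chromosomes 13 (0.36 on day 4) and 19 (0.34) lie above and chromosome 20 (-0.19) below 0 on all 4 days.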

How the data were processed

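Expected counts and FPKM values of 16 poly(A)-selected HEK-293 libraries (2 per line and day) were used. The authors sequenced single-end reads from libraries made with the NEXTflex qRNA-seq kit, aligned them with STAR to GRCh37 and estimated expected counts per gene with RSEM 1.3.0, which divides ambiguous reads among genes. FPKM values were derived by the authors from the same estimates. The sources used here do not say whether the kit's molecular labels were used. Samples were grouped by the line, day and replicate of their labels.

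Expected counts were rounded, scaled by TMM and fitted with 8 groups by edgeR 4.0.16 in R 4.3.3. Its quasi-likelihood p-values were adjusted by the Benjamini-Hochberg method over 18925 of 57820 genes (FPKM above 1 in at least 1 library). These held 99.58 to 99.83% of the counts. Contrasts were the line difference on each day and day 4 minus each other day. DESeq2 1.42.0 and limma 3.58.1 served as alternatives, and matplotlib 3.10.9 drew the figures. The fit was tested on simulated data. A GENCODE annotation on GRCh37 gave positions for 18281 genes and GC content for 96.6%.

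The members and lists were chosen with earlier results of these data known. The rule for named genes took HCFC2, HCFC1 and OGT, the 12 largest called differences and 6 largest called CPM differences per direction, up to 3 and 2 called members per list, and up to 4 genes per direction for each other day, with a minimum mean count of 100 for the 12 largest and the day comparisons. It gave 207 genes, of which the text describes a part. Further called members of the lists were named after their values were seen.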

Additional observations from a re-analysis of the deposited data

Results flagged for a closer look

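For many genes the line difference on day 4 was not that of a given other day, by the test of the difference itself (edgeR's quasi-likelihood test, Benjamini-Hochberg adjusted). Against day 1 the day 4 difference was above for 1684 genes and below for 2541, against day 2 above for 746 and below for 1089, and against day 6 above for 119 and below for 33. Against all of days 1, 2 and 6 together, 0 genes passed upward and 1 downward. In the simulated data each of these tests recovered 60 to 61% of the genes given a log2 change of 0.75. Failing to pass all of them therefore does not show that a difference was shared with another day. The lists with the most members below day 1 in proportion were the immediate-early genes (22 of 28), the NF-kB subunits and targets (15 of 20) and the p53 targets (16 of 27). Over all genes tested the share below day 1 was 13.4%, and the lists were chosen with earlier results of these data known. Of the 2291 genes called lower on day 4, 186 had been called higher on day 1 and 63 on day 2. Over all genes tested, 18.7% were called higher on day 1 and 9.08% on day 2. Of the 1902 genes called higher on day 4, 23 and 7 had been called lower, where the shares over all genes were 15.5% and 7.57%. Opposite calls were thus rarer in both directions than among all genes. Groups of 2 libraries are too small for a search for single outlying libraries by the rule used for larger groups.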

How the results depend on the processing

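Of 4193 genes called on day 4, 2437 (981 higher, 1456 lower) were called in the same direction in every alternative that tested them, and 0 were called in the opposite direction in any. The counts of called genes and of called list members stayed within 1.5 times the reported ones, except that an adjusted p alone gave 3577 higher and 3897 lower and a limit of 1 on the log2 scale 688 and 825. The counts against other days were less stable. Against day 6, the number above was 206 with DESeq2, 461 without the FPKM filter and 268 with the pairing crossed, and the number below 18 with limma-voom, 84 with upper-quartile scaling, 128 without the filter, 56 with the FPKM limit in all 4 day 4 libraries, 76 with the pairing crossed and 73 with GC-corrected offsets, which gave 154 above. Against day 2, 1185 were above without the filter, and GC correction gave 554 above and 1250 below. The causes were not tested. Leaving out 1 day 4 library at a time gave 452 to 1226 genes above day 2, 11 to 460 above and 4 to 155 below day 6, 1426 to 2151 genes higher and 1979 to 2352 lower on day 4, and medians of 0.29 to 0.42 for chromosome 13, 0.23 to 0.44 for chromosome 19 and -0.22 to -0.18 for chromosome 20. The median of chromosome 20 was -0.21 with upper-quartile scaling and -0.17 with GC correction. Without the FPKM filter the medians of chromosomes 13, 19 and 20 were 0.00 (just below 0 before rounding), 0.01 and -0.30, over a larger set of genes. The median over all genes in that setting was -0.083. SOGA3, which was not called (0.09), changed sign without WT replicate 1 (-0.28) or Fn3nc* replicate 1 (-0.06) and was 0.58 without WT replicate 2. Of 207 named genes, 164 were called and kept that call in every alternative that tested them.

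Replicate numbers are shared across groups, but same-numbered libraries did not deviate together (7 of 28 pairs of groups correlated above 0.1), so the numbers were not taken as pairs. With the replicate block 1843 genes were higher and 2252 lower, and no named gene changed its call. The day 4 deviations correlated at -0.451, and a pairing crossed within day 4, added after seeing the data as was the GC correction, gave 2080 and 2321.

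The day 4 duplicates differed by a chi-square per gene of 19 in WT and 6.9 in Fn3nc*, where counting error alone gives about 1. The WT value was the largest of the 8 groups, and the other groups lay between 2.76 and 11.5. By this measure the spread between libraries exceeded counting error. The measure was not split by abundance, so it does not show what limited sparse genes, and 2611 genes tested had a mean count under 10. Intervals from counting error alone are not given. The fit pools the spread of the 8 groups, so the day 4 p-values draw on groups whose duplicates lay closer. With only the 4 day 4 libraries fitted, 1594 genes were called higher and 2079 lower. Of the 4193 genes called in the full fit, 85.5% kept their call, and 13 of the 207 named genes lost it.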

Other observations

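Some genes outside the naming rule had few or no counts in 1 line, and they were picked after their values had been seen. Genes with at most 3 counts over the 2 libraries of one line and at least 1 CPM in both libraries of the other numbered 4. CCL20, a chemokine gene, held 134 counts in WT and 2 in Fn3nc*, at 3.64 and 1.91 CPM in the WT libraries. HIST1H3F, a replication-dependent histone gene whose mRNA lacks a poly(A) tail, held 1 count in WT and 215 in Fn3nc*. AC097359.1 held 116 counts in WT and 0 in Fn3nc*, which with the floor of 3 counts for the group puts it at least 38.7-fold lower. The read-through transcript HSPE1-MOB4 held 105 counts in WT and 0 in Fn3nc*, and its count is uncertain because it overlaps HSPE1 and MOB4.

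By type of gene, 1340 of 13211 protein-coding genes (10.1%) were called higher and 1940 (14.7%) lower, whereas among 2568 long noncoding genes the shares were 10.4% and 7.87% and among 2044 pseudogenes 9.49% and 4.70%. Of 70 replication-dependent and other histone genes with the older HIST symbols, 6 were called higher and 1 lower, and their median was 0.05.

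Other 10-Mb windows with an uneven balance, picked after their values had been seen, lay on several chromosomes. Examples are chromosome 5 before 10 Mb, with 20 of 41 genes called higher, 0 lower and a median of 0.67, and chromosome 17 from 20 to 30 Mb, with 31 of 109 higher, 6 lower and a median of 0.50. Their medians were 0.27 and 0.49 on day 1, 0.33 and 0.35 on day 2 and 0.48 and 0.50 on day 6. On chromosome 17 before 10 Mb 60 of 206 genes were called higher and 10 lower, on chromosome 8 from 20 to 30 Mb 24 of 71 and 3, and on chromosome 16 from 70 to 80 Mb 18 of 72 and 3 and from 80 to 90 Mb 21 of 96 and 5. On chromosome 20 from 60 Mb on 0 of 54 were called higher and 18 lower. On chromosome X from 30 to 40 Mb, 7 of 19 genes were called lower and 0 higher, with a median of -0.64.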
